A study of Mus musculus with 23 samples.

Results

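Of the genes whose transcripts were counted in osteocyte-enriched bone, this account covers 10 that belong to mitochondrial fatty acid oxidation and to its control by peroxisome proliferator-activated receptors (PPARs). They are the carnitine palmitoyltransferases *Cpt1a*, *Cpt1b* and *Cpt2*, the acyl-CoA dehydrogenases *Acadvl*, *Acadl* and *Acadm*, the trifunctional protein genes *Hadha* and *Hadhb*, and the regulators *Ppara* and *Ppargc1a*. They were chosen by symbol from the 16232 genes present in either count table. All 10 were in the table of the 2-week experiment and 9 in that of the single-bout experiment, where *Cpt1b* was not analysed.

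The mice were wild-type C57BL/6 males aged 5 months. The right tibia was loaded at a peak force of 8.25 N and the left tibia was the nonloaded limb of the same mouse, so that the nonloaded groups came from mice that had been loaded on the other side. L-BAIBA (L-β-aminoisobutyric acid), an amino acid metabolite released by contracting muscle, was given in the drinking water at 100 mg/kg per day, and vehicle mice had regular water. In the 2-week experiment loading was repeated over 2 weeks with concurrent treatment, and there were 3 libraries each of L-BAIBA loaded, vehicle loaded, L-BAIBA nonloaded and vehicle nonloaded tibiae. In the single-bout experiment the mice drank L-BAIBA or water for 5 days before 1 loading bout, and there were 3, 3, 2 and 3 libraries of the same groups. Bone was taken 24 hours after the last bout. A library was made from 2 mice, taking from both the tibia of 1 side, and p values therefore measure the spread between such pools. Marrow was flushed out and the bone was digested to remove surface cells. This leaves bone enriched for osteocytes, the cells embedded in the mineral, together with what remains of vessels, marrow and surface cells.

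Long-chain fatty acids enter the mitochondrial matrix as carnitine esters. CPT1 in the outer membrane makes the ester and is the step inhibited by malonyl-CoA, and CPT2 in the inner membrane turns it back into acyl-CoA. Each round of β-oxidation then starts with an acyl-CoA dehydrogenase matched to chain length, and for long chains it is completed by the trifunctional protein, whose α subunit (*Hadha*) and β subunit (*Hadhb*) form 1 complex. PPARα is a nuclear receptor that binds fatty acids and turns on these genes with its partner RXR, and PGC-1α (*Ppargc1a*) is a coactivator of PPARα and of estrogen-related receptors, best known in muscle, brown fat and liver. BAIBA is known for raising fatty acid oxidation in liver cells through PPARα.

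In mm10 coordinates the genes lie at chr19:3323301-3385733 (*Cpt1a*), chr15:89416405-89425862 (*Cpt1b*), chr4:107903982-107923589 (*Cpt2*), chr11:70010183-70015428 (*Acadvl*), chr1:66830839-66863309 (*Acadl*), chr3:153922353-153944643 (*Acadm*), chr5:30118304-30154980 (*Hadha*), chr5:30155253-30184593 (*Hadhb*), chr15:85735564-85806851 (*Ppara*) and chr5:51454249-51553921 (*Ppargc1a*). *Hadha* and *Hadhb* stand head to head, transcribed away from each other with 272 bases between their start sites. Promoter windows from 250 bases before to 50 bases after the start site were found in RefSeq (GRCm38.p6, the mm10 assembly) for 9 of the 10 genes, all but *Cpt1b*. For 7 of them the start site is that of the coordinates given here. The RefSeq window of *Ppargc1a* lies at another start site, 13804 bases away, and that of *Ppara* at one 212 bases away. The 3 stretches below belong to the enzymes whose groups did not overlap in a 2-week comparison, and the first of them is shared by a pair of genes. Capitals mark AGGTCA (the hexamer bound by nuclear receptors such as PPAR and RXR), GGGCGG (the GC box) and CCAAT, each on either strand, so that TGACCT and CCGCCC are the same motifs read from the other strand.
*Hadha*–*Hadhb* shared stretch, chr5:30155003-30155230, plus strand: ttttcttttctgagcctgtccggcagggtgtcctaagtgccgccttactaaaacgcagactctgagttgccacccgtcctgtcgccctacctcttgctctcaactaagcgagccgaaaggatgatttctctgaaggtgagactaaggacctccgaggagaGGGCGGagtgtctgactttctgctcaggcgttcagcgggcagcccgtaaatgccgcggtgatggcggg
*Acadl* upstream, chr1:66863310-66863559, minus strand: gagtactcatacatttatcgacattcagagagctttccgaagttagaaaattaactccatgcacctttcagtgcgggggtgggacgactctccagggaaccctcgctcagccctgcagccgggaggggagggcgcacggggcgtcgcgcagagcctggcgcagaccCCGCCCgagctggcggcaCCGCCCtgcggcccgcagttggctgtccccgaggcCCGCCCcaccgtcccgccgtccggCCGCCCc
*Cpt1a* upstream, chr19:3323051-3323300, plus strand: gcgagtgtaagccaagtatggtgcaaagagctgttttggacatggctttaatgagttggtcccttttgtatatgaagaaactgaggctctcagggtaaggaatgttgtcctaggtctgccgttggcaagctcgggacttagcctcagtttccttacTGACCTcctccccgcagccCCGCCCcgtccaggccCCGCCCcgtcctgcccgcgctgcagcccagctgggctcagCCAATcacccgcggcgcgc

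The bidirectional stretch held 1 GC box, the *Acadl* stretch held 4 and the *Cpt1a* stretch held 2, with an AGGTCA and a CCAAT besides. Among the 9 promoter windows the GC box was found in 6 (*Acadl*, *Cpt2*, *Hadha*, *Hadhb*, *Ppara* and *Cpt1a*), and it is in 35.7% of 32851 mouse promoter windows of the same length. AGGTCA was found in those of *Acadm*, *Acadvl* and *Cpt1a*, against 16.3% of all windows. The full DR1 repeat of that hexamer, the canonical PPAR response element, was in 0 of the 9, and in 0.0396% of all windows. The estrogen-related receptor element TCAAGGTCA was likewise in 0 of the 9 (0.423% of all windows). These are matches of letters in a short window and no measure of binding.

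Gene counts summed to 6368289 to 18318951 in the 2-week libraries and 17811949 to 37562527 in the single-bout libraries. Markers of osteocytes (*Dmp1*, *Mepe*, *Sost*, *Phex*, *Fgf23*, *Pdpn*, *Dkk1* and *Cd44*) were all detected, 8 of 8 in both tables. Their summed level, in CPM (counts-per-million after TMM scaling), spanned 5860 to 24000 in the 2-week libraries. Cells of the bone surface were represented as well. In the 2-week libraries the 6 osteoblast markers summed to 11700 to 32800 CPM and the 5 osteoclast markers to 1820 to 3830 CPM. In the single-bout libraries these sums were 2600 to 19400 CPM and 1600 to 3930 CPM. Other cells were represented too: 3 of 8 erythroid markers (*Slc4a1*, *Alas2* and *Klf1*; the haemoglobin genes were not analysed here) and 8 of 8 neutrophil markers were present in both experiments, and the neutrophil markers summed to 12800 CPM or more in every library. The shallowest 2 libraries of the 2-week experiment were those of L-BAIBA replicate 1, loaded and nonloaded, which come from 1 pool of mice and correlated least with the other libraries (median correlation 0.952 and 0.945). In bulk bone, fewer cells of a type and less RNA per cell cannot be told apart.

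The enzymes other than *Cpt1b* were expressed at moderate to high levels, and *Cpt1b* and both regulators at low levels (plot of the level in every library). Levels between genes are given per kilobase of exon, using the exon length deposited with the counts. In the 2-week experiment *Acadl*, the long-chain acyl-CoA dehydrogenase, averaged 44.1 ± 4.06 CPM per kb and *Hadha* 42.0 ± 3.99 CPM per kb (SD, n = 12 libraries). This placed them at percentiles 89.6 and 88.9 of all genes tested, and their ranges overlapped. *Acadvl*, the very-long-chain dehydrogenase, averaged 31.6 ± 3.52 CPM per kb, *Acadm*, the medium-chain dehydrogenase, 26.6 ± 2.84 CPM per kb and *Cpt1a*, the liver-type CPT1, 25.5 ± 3.04 CPM per kb. Neighbours in this part of the order overlapped. *Hadhb* averaged 19.8 ± 2.53 CPM per kb and overlapped with *Cpt1a*. *Cpt2* averaged 7.84 ± 1.87 CPM per kb, and its highest library (10.45 CPM per kb) was below the lowest of *Hadhb* (15.7 CPM per kb).

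The remaining 3 genes were far lower on the same scale. *Ppargc1a* averaged 0.358 ± 0.298 CPM per kb, *Ppara* 0.200 ± 0.0778 CPM per kb and *Cpt1b*, the muscle-type CPT1, 0.142 ± 0.0601 CPM per kb, again with overlapping ranges. *Ppargc1a* stood at percentile 7.78 of all genes tested and *Cpt1b* at percentile 1.71. Counts of *Cpt1b* were 1 to 10 per library, so its values carry large counting error. In the single-bout experiment the order was the same except that *Cpt1a* stood next after *Hadha*, at 33.1 ± 5.10 CPM per kb (SD, n = 11 libraries). *Acadl* averaged 46.4 ± 3.94, *Hadha* 39.5 ± 3.67 and *Cpt2* 7.56 ± 1.29 CPM per kb there. The experiments were scaled apart and were separate sets of mice and libraries, so their levels are set side by side without a test.

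**Figure D1:**
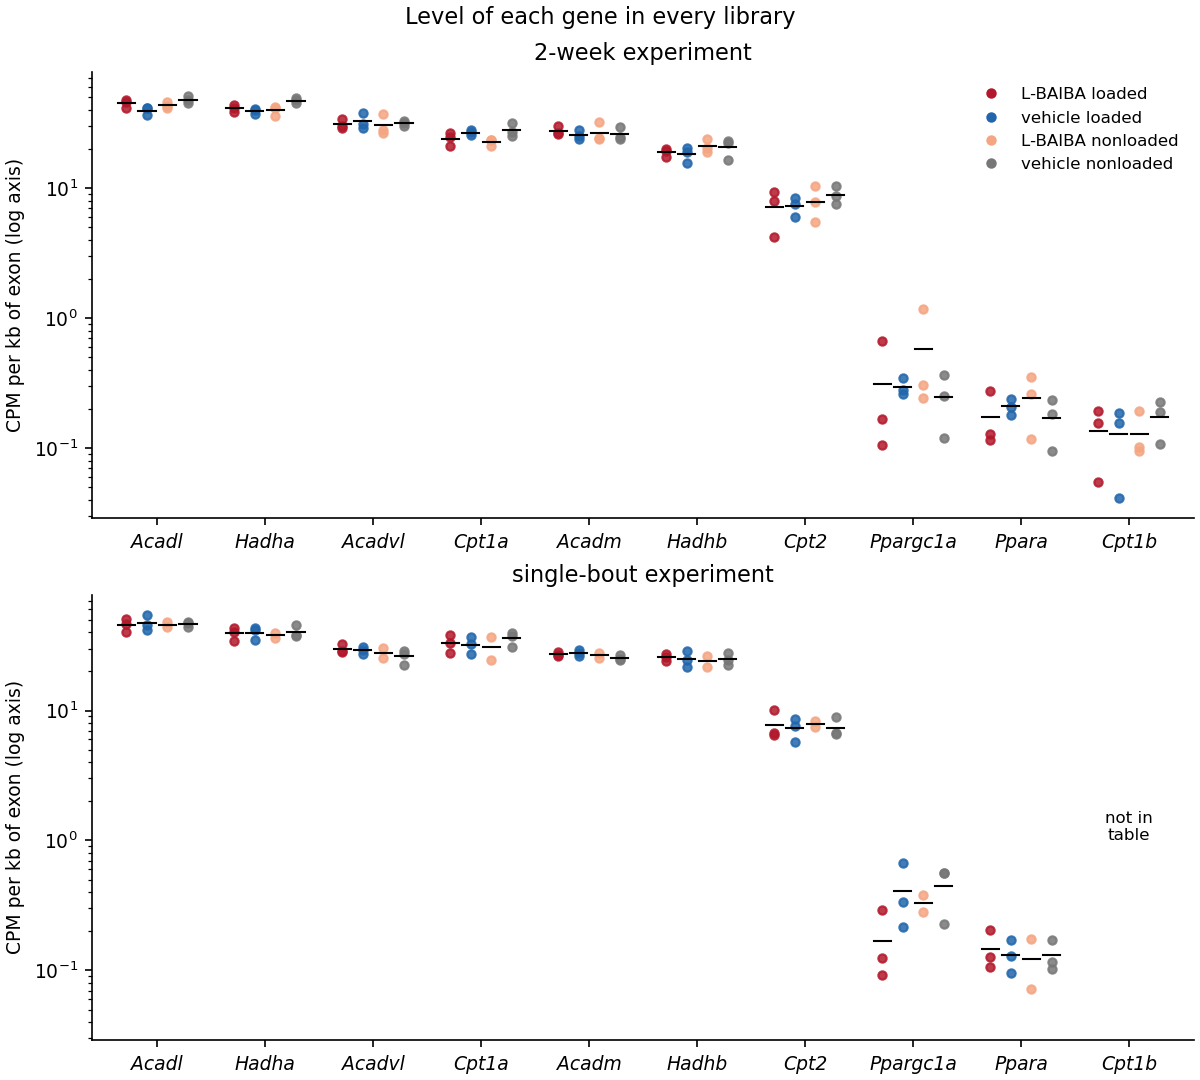
Level of each gene in every library, in CPM per kilobase of exon on a log axis, with 1 point per library, a bar at each group mean and the 2 experiments in separate panels. The 6 enzymes on the left lie between 15.7 and 54.6 CPM per kb, *Cpt2* lies between 4.21 and 10.45 CPM per kb, and *Ppargc1a*, *Ppara* and *Cpt1b* mostly lie under 1 CPM per kb.

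Of the enzymes, 6 varied less between libraries than the median gene of like level in the 2-week experiment. Over all 12 libraries of the 2-week experiment the coefficient of variation was 9.20% for *Acadl*, 9.51% for *Hadha*, 10.7% for *Acadm*, 11.1% for *Acadvl*, 11.9% for *Cpt1a* and 12.8% for *Hadhb*. The median over the 7304 genes with a mean of 20 to 200 CPM was 17.0%. *Cpt1b* (42.4%, at 1 to 10 counts per library) and *Ppara* (39.0%) varied more. *Cpt2* was at 23.9%, and its 2 lowest libraries were the L-BAIBA replicate 1 pool, with 9.89 CPM in the loaded and 13.02 CPM in the nonloaded library. *Acadm* was the steadiest in the single-bout experiment, at 5.51% between 50.6 and 60.1 CPM, against a median of 13.9% for genes of like level. *Cpt1a* varied more than that median there, at 15.4%. *Ppargc1a* was the most variable of the 10 in both experiments (83.1% and 54.9%).

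The subunit genes of the trifunctional protein were not at equal levels. The ratio of *Hadha* to *Hadhb*, in CPM per kb, was 1.5 to 2.75 with a median of 2.14 over the 12 libraries of the 2-week experiment, and 1.32 to 1.81 with a median of 1.59 over the 11 single-bout libraries. *Hadha* was therefore above *Hadhb* in every library. With each experiment's mean subtracted, the log2 CPM of the pair correlated weakly over the 23 libraries (Pearson r = 0.23, Spearman rho = 0.25). *Hadha* went more closely with *Acadl* (r = 0.67, rho = 0.63) and *Cpt2* (r = 0.64, rho = 0.64). These points share mouse pools and scaling within an experiment, so the correlations are descriptive.

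**Figure D2:**
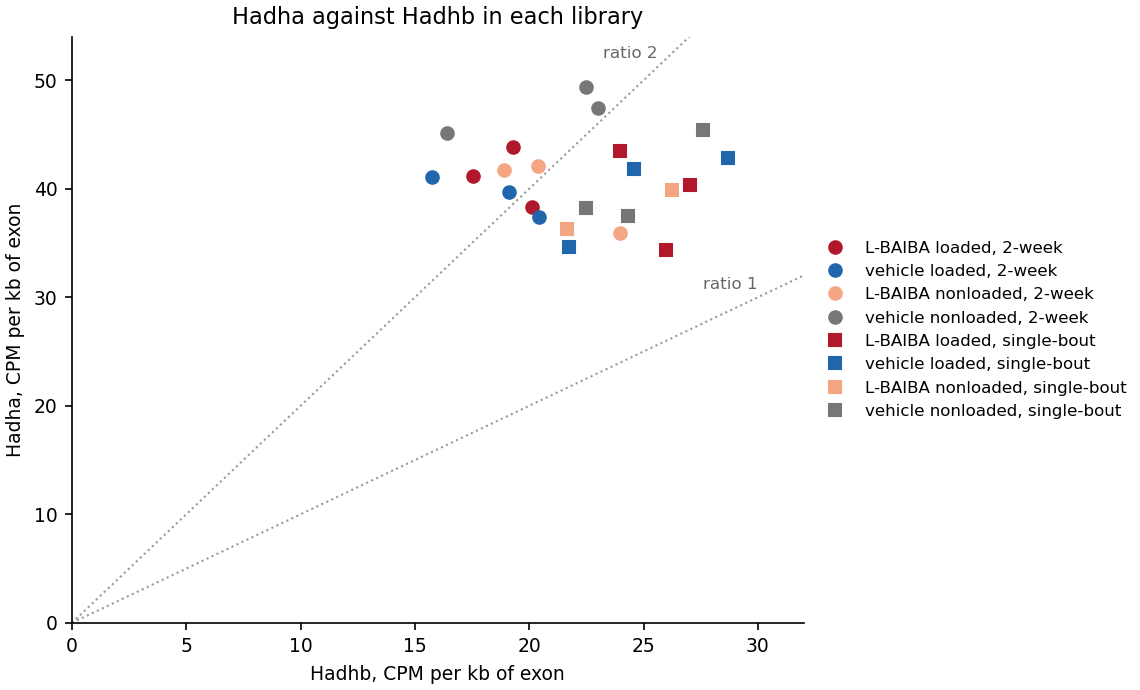
*Hadha* against *Hadhb*, both in CPM per kb of exon, with 1 point per library, colour for the group and shape for the experiment; dotted lines mark ratios of 1 and 2. All 23 libraries lie above the line of ratio 1, between ratios of 1.32 and 2.75.

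After 2 weeks of loading alone, no member of the group passed the test. The comparison of vehicle loaded with vehicle nonloaded tibiae asks what loading does in the absence of L-BAIBA. Among the 10 genes 7 were lower and 3 higher. Their median was -0.12 on the log2 scale, against 0.01 over all 15576 genes tested. By edgeR's quasi-likelihood test 0 of the 10 had an adjusted p under 0.05, and the background was the same, with 0% of all genes called (smallest adjusted p = 0.475). At an unadjusted p under 0.05 stood 0 of the 10 and 10.2% of all genes. *Acadl* and *Hadha* came nearest. *Acadl* was at 80.3, 70.8 and 80.4 CPM in vehicle loaded tibiae, against 100.3, 92.6 and 88.0 CPM in vehicle nonloaded tibiae. *Hadha* was at 157, 143 and 152 CPM in vehicle loaded tibiae, against 189, 182 and 173 CPM in vehicle nonloaded tibiae. For both genes every loaded library lay below every nonloaded one, which was the case in this direction for 9.74% of all genes.

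The log2 fold change of *Acadl* was -0.28 (SE 0.13, fold 0.824, 95% interval 0.677 to 1.00, unadjusted p = 0.0526, adjusted p = 0.49). That of *Hadha* was -0.26 (SE 0.14, fold 0.833, 95% interval 0.679 to 1.02, unadjusted p = 0.0736, adjusted p = 0.508). Once pools entered as a random block the adjusted p values were 0.216 and 0.22. Within the 2 vehicle pools that had a library from each side, *Acadl* was at 0.801 and 0.868 times, and *Hadha* at 0.831 and 0.837 times, its level in the other limb of the same mice. *Hadhb* was also lower in both pools (0.700 and 0.830 times), with a log2 fold change over the groups of -0.17 (adjusted p = 0.74). The share of all genes lower in both pools was not counted. *Cpt2* had a log2 fold change of -0.28 with a larger error (SE 0.28, adjusted p = 0.737). *Cpt1a*, *Acadm* and *Acadvl* lay between -0.07 and 0.06 (SE 0.15 to 0.16). Over the 7 enzymes other than *Cpt1b*, the 95% intervals spanned folds of 0.540 to 1.33.

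Markers of blood cells moved with this comparison. The 3 erythroid markers summed to 1710 to 3140 CPM in vehicle loaded tibiae, against 3690 to 4470 CPM in vehicle nonloaded tibiae, and the 8 neutrophil markers to 12800 to 20500 CPM against 19500 to 31300 CPM. The 8 osteocyte markers summed to 7850 to 24000 CPM in vehicle loaded tibiae, against 7670 to 8200 CPM in vehicle nonloaded tibiae. Over the 23 libraries, with each experiment's mean subtracted, *Hadha* followed the erythroid sum (r = 0.84, rho = 0.81) and ran opposite to the osteocyte sum (r = -0.75, rho = -0.70). *Acadl* did so less closely (r = 0.58 and -0.70, rho = 0.52 and -0.69). The part of these cell types in the differences of *Acadl* and *Hadha* was not tested.

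**Figure D3:**
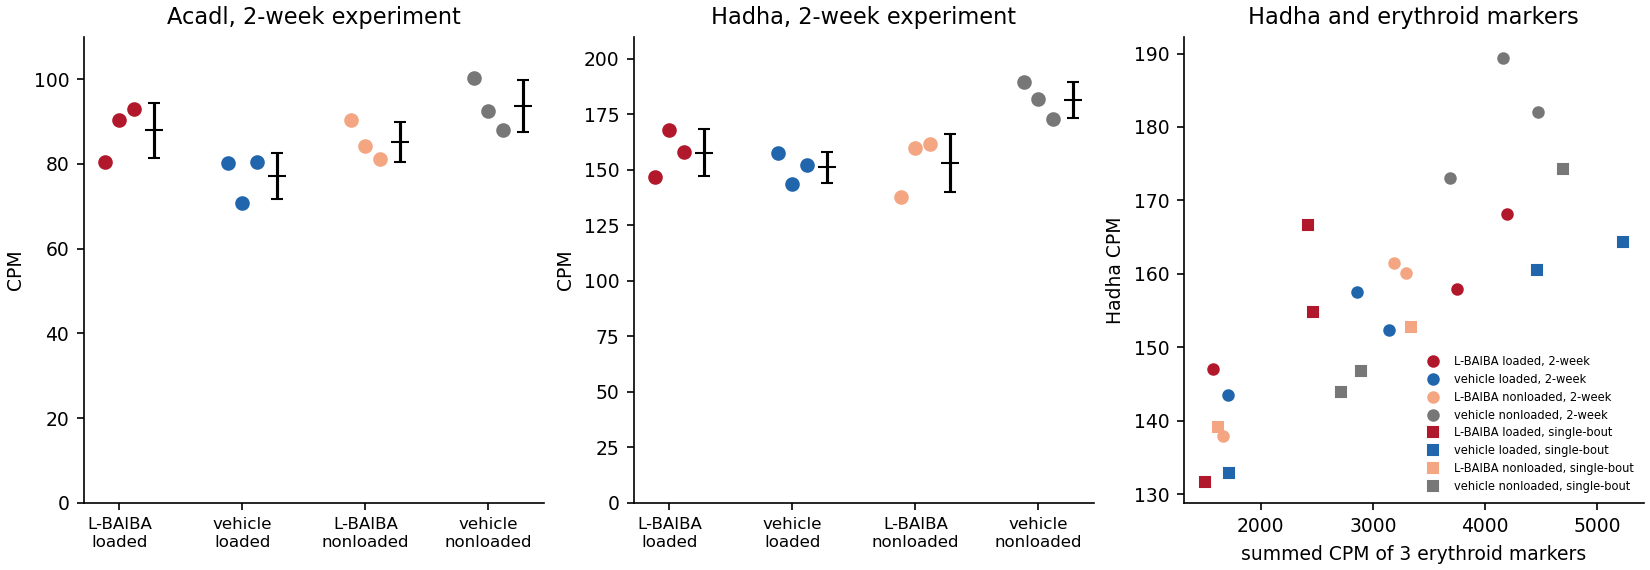
Left and middle, CPM of *Acadl* and *Hadha* in each library of the 2-week experiment by group, with mean and SD beside the points. Right, CPM of *Hadha* against the summed CPM of 3 erythroid markers over all 23 libraries (neither axis starts at 0). The vehicle loaded libraries (70.8 to 80.4 CPM for *Acadl*, 143 to 157 CPM for *Hadha*) lie below the vehicle nonloaded ones (88.0 to 100.3 and 173 to 189 CPM), and *Hadha* is higher where the erythroid sum is higher.

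L-BAIBA alone for 2 weeks likewise moved no member past the threshold (edgeR, 0 of 10 at an adjusted p under 0.05 beside 0% of all genes; 0 of 10 at an unadjusted p under 0.05 beside 9.23%). In L-BAIBA nonloaded tibiae 6 genes were lower and 4 higher. Their median was -0.09 on the log2 scale, against -0.00 over all genes. The entry step of the pathway was among the lower ones. *Cpt1a* was at 90.4, 101 and 102 CPM in L-BAIBA nonloaded tibiae, against 138, 109 and 117 CPM in vehicle nonloaded tibiae. The groups did not overlap (9.46% of all genes in this direction), and the log2 fold change was -0.31 (SE 0.15, fold 0.807, 95% interval 0.649 to 1.00, unadjusted p = 0.0538, adjusted p = 0.536). *Hadha* was at 138, 160.1 and 161 CPM in L-BAIBA nonloaded tibiae and so below all vehicle nonloaded libraries too (log2 fold change -0.24, SE 0.14, adjusted p = 0.554). *Acadl* was 0.14 lower on the log2 scale (adjusted p = 0.704), while *Acadm*, *Acadvl* and *Hadhb* lay between -0.05 and 0.03. Over the 7 enzymes the 95% intervals spanned folds of 0.580 to 1.36.

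In this comparison the sums of B cell and erythroid markers were lower as well, and that of osteocyte markers higher. The 4 B cell markers summed to 148 to 166 CPM in L-BAIBA nonloaded tibiae, against 206 to 319 CPM in vehicle nonloaded tibiae, and the 3 erythroid markers to 1660 to 3300 CPM against 3690 to 4470 CPM. The 8 osteocyte markers summed to 11800 to 17200 CPM in L-BAIBA nonloaded tibiae, against 7670 to 8200 CPM in vehicle nonloaded tibiae. Over the 23 libraries *Cpt1a* followed the B cell sum (r = 0.67, rho = 0.63) and the erythroid sum (r = 0.62, rho = 0.49) and ran opposite to the osteocyte sum (r = -0.42, rho = -0.41). Their part in the differences of *Cpt1a* and *Hadha* was not tested.

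With loading and L-BAIBA combined for 2 weeks no enzyme differed from vehicle nonloaded tibiae beyond the error of the fit. In L-BAIBA loaded tibiae 8 genes were lower and 2 higher than in vehicle nonloaded tibiae (median on the log2 scale -0.11, against -0.00 over all genes), and 0 passed by edgeR, beside 0% of all genes, with 0 of 10 at an unadjusted p under 0.05 beside 1.88%. *Hadha* was at 147, 168 and 158 CPM in L-BAIBA loaded tibiae, below all 3 vehicle nonloaded libraries (log2 fold change -0.20, SE 0.14, adjusted p = 1), which was so for 4.24% of all genes in that direction. *Cpt1a* was at 90.7, 114 and 106 CPM (log2 fold change -0.23, SE 0.15, adjusted p = 1), overlapping the vehicle nonloaded libraries. *Acadl* was at 80.5, 90.2 and 92.9 CPM (log2 fold change -0.09). *Acadm* had the highest value of the enzymes, with a log2 fold change of 0.08 (SE 0.16). The loading, L-BAIBA and combination values are all set against the same 3 vehicle nonloaded libraries, in which *Hadha* was high, and are not independent.

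Added to loading, L-BAIBA left 5 of the 10 genes higher and 5 lower in the L-BAIBA loaded than in the vehicle loaded tibiae (median log2 fold change 0.02), with 0 called by edgeR beside 0% of all genes and 0 at an unadjusted p under 0.05 beside 1.50%. Here *Acadl* was the gene whose groups stood apart, every L-BAIBA loaded library being above every vehicle loaded one, as for 3.49% of all genes in that direction. The distance was small, 80.5 CPM for the lowest L-BAIBA loaded library against 80.4 CPM for the highest vehicle loaded library (log2 fold change 0.19, SE 0.13, adjusted p = 1). Loading within L-BAIBA mice gave log2 fold changes of -0.15 to 0.08 for the 7 enzymes, and 0 of the 10 genes were called by edgeR, beside 0% of all genes, with 0 at an unadjusted p under 0.05 beside 1.68%. *Hadha* (0.04) and *Acadl* (0.05) were on the other side of 0 from loading in vehicle mice. The difference of the loading effects, L-BAIBA minus vehicle, was 0.32 for *Acadl* (SE 0.19, unadjusted p = 0.103, adjusted p = 0.724) and 0.31 for *Hadha* (SE 0.19, unadjusted p = 0.134, adjusted p = 0.724), so the effects were not shown to differ. For this difference 0 of the 10 genes were called by edgeR beside 0% of all genes, and 0 had an unadjusted p under 0.05 beside 6.60%. In the 3 L-BAIBA pools *Hadha* in the loaded limb was at 0.978 to 1.07 times, and *Acadl* at 0.891 to 1.15 times, its level in the nonloaded limb.

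**Figure D4:**
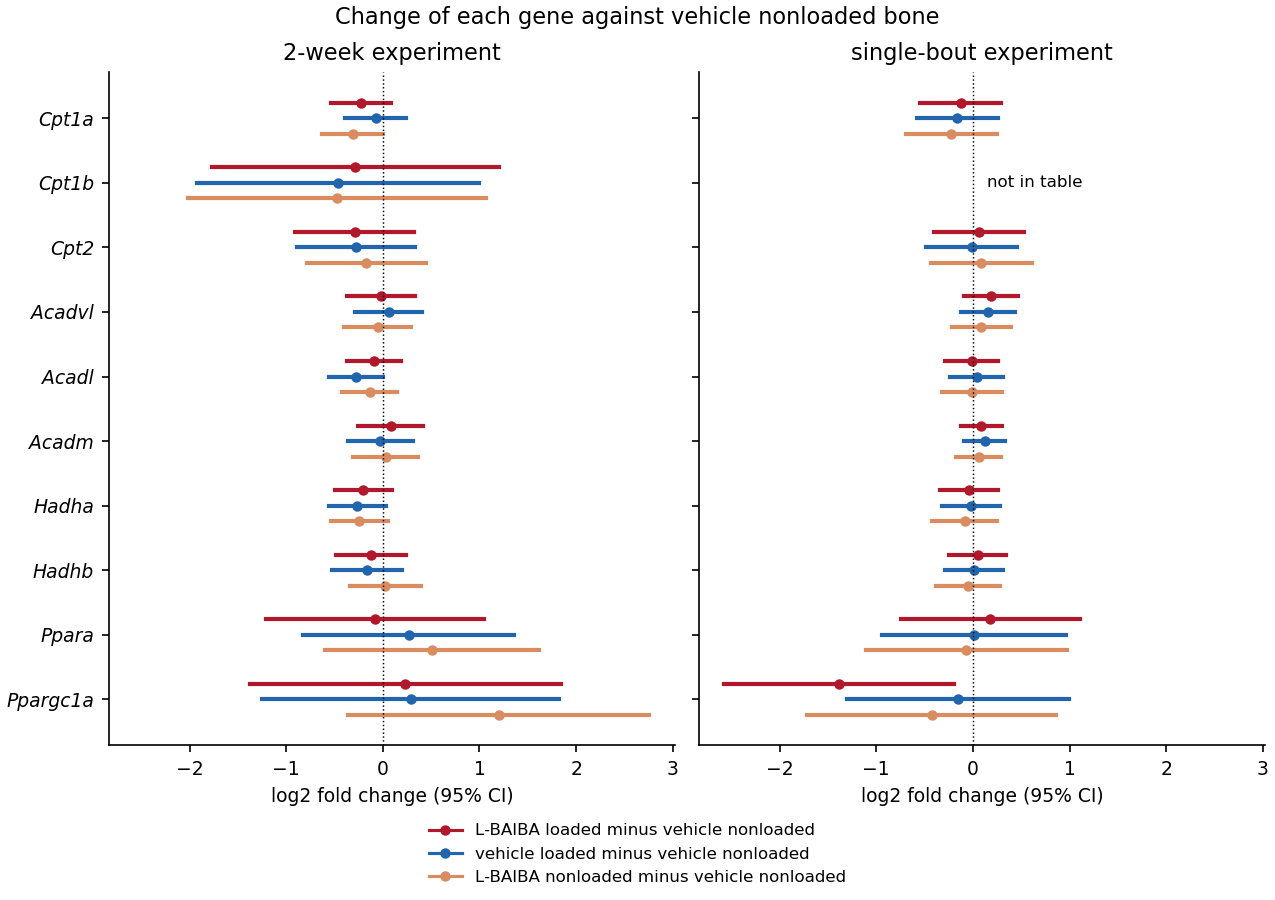
Log2 fold changes against vehicle nonloaded tibiae with 95% intervals from the edgeR fit, by gene, for L-BAIBA loaded, vehicle loaded and L-BAIBA nonloaded tibiae in the 2 experiments. The enzymes other than *Cpt1b* lie between -0.31 and 0.19 with intervals that include 0, and *Ppargc1a* in L-BAIBA loaded tibiae of the single-bout experiment lies at -1.38 with an interval of -2.57 to -0.20.

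In the single-bout experiment, which was sequenced more deeply, no enzyme passed the test. A single bout in vehicle mice left 5 of 9 genes higher and 4 lower (median log2 fold change 0.01 against 0.02 over all 15500 genes tested), with 0 called by edgeR beside 0% of all genes and 0 at an unadjusted p under 0.05 beside 1.19%. The 7 enzymes lay between -0.16 (*Cpt1a*, SE 0.19) and 0.16 (*Acadvl*, SE 0.12). *Acadl* was at 81.6, 89.1 and 106 CPM in vehicle loaded tibiae, against 85.4, 91.5 and 93.0 CPM in vehicle nonloaded tibiae. *Hadha* was at 133, 160.5 and 164 CPM in vehicle loaded tibiae, against 144, 147 and 174 CPM in vehicle nonloaded tibiae. Both sets of values overlapped, and the 95% intervals of the 7 enzymes spanned folds of 0.669 to 1.37. Within the 2 vehicle pools with both limbs, the loaded limb was at 0.892 and 0.957 times the nonloaded limb for *Acadl* and at 0.906 and 0.921 times for *Hadha*. *Hadhb*, *Cpt2* and *Cpt1a* were also lower in the loaded limb of both pools, and *Acadm* and *Acadvl* higher. The share of all genes that went the same way in both pools was not counted. The erythroid sum was 1720 CPM in the loaded against 2890 CPM in the nonloaded limb of 1 pool, and 4460 against 4700 CPM in the other. The osteocyte sums were 17800 against 5490 CPM and 9680 against 5080 CPM. Their part in these ratios was not tested. The log2 fold change of *Acadl* was 0.04 over the groups and -0.11 with a fixed block for the pool (adjusted p = 1 and 0.692), and that of *Hadha* -0.02 and -0.13 (adjusted p = 1 and 0.727).

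Short-term L-BAIBA alone left 3 of 9 genes higher and 6 lower (median log2 fold change -0.05 against 0.01), with 0 called by edgeR beside 0% of all genes and 0 at an unadjusted p under 0.05 beside 3.68%. *Cpt1a* had the lowest value of the enzymes, at 106 and 159 CPM in L-BAIBA nonloaded tibiae, against 133, 161 and 170.0 CPM in vehicle nonloaded tibiae (log2 fold change -0.22, SE 0.21, adjusted p = 0.956). The 2 L-BAIBA libraries differed from each other by more than the groups did. The combination left 5 of 9 genes higher and 4 lower (median log2 fold change 0.05 against 0.02), with 0 called by edgeR beside 0% of all genes and 1, *Ppargc1a*, at an unadjusted p under 0.05 beside 16.7%. The 7 enzymes lay between -0.12 (*Cpt1a*, SE 0.19) and 0.19 (*Acadvl*, SE 0.12), with 95% intervals that spanned folds of 0.687 to 1.45. *Acadvl* was at 62.0, 62.5 and 70.9 CPM in L-BAIBA loaded tibiae, against 59.6, 49.3 and 62.7 CPM in vehicle nonloaded tibiae (adjusted p = 0.452). L-BAIBA added to the single bout gave values of the 7 enzymes from -0.05 to 0.08, with intervals that spanned folds of 0.761 to 1.46. In this comparison 0 of the 9 genes were called by edgeR beside 0% of all genes, and 1 of the 9, *Ppargc1a*, had an unadjusted p under 0.05 beside 18.9% of all genes. Loading within L-BAIBA mice and the difference of the loading effects had 0 of 9 called by edgeR (0% of all genes in each) and 0 of 9 at an unadjusted p under 0.05, beside 3.44% and 2.01% of all genes.

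*Ppargc1a* was the gene with the widest swings. In the 2-week experiment it was at 4.31, 0.685 and 1.10 CPM in L-BAIBA loaded tibiae (27, 11 and 17 counts), 1.81, 1.69 and 2.27 CPM in vehicle loaded tibiae, and 7.69, 1.58 and 2.00 CPM in L-BAIBA nonloaded tibiae (52, 29 and 18 counts), against 1.65, 0.784 and 2.37 CPM in vehicle nonloaded tibiae (27, 12 and 23 counts). Both high values belong to replicate 1 of L-BAIBA, the 2 limbs of 1 pool of mice. The log2 fold change of L-BAIBA alone was 1.20 (SE 0.72, adjusted p = 0.571), and without that pool, a choice made after its level was seen, it was 0.19 (adjusted p = 0.908). Skeletal muscle markers (8 of 15 in the table; *Acta1*, *Ckm*, *Myh2*, *Myh4*, *Tnnc2*, *Pvalb* and *Mb* were not in it) summed to 41.0 CPM in the nonloaded library of this pool and to 15.5 to 24.1 CPM in the 11 other libraries, its loaded library (19.1 CPM) included. The 5 endothelial markers summed to 984 CPM in the loaded and 903 CPM in the nonloaded library of this pool, and to 511 to 843 CPM in the 10 other libraries. Their part in the *Ppargc1a* level was not tested.

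Within L-BAIBA pools *Ppargc1a* was lower in the loaded limb in 3 of 3, at 0.560, 0.432 and 0.548 times the nonloaded limb. In the 2 vehicle pools it was at 1.10 and 2.89 times. The L-BAIBA ratios rest on 11 to 27 counts in the loaded and 18 to 52 counts in the nonloaded libraries. The share of all genes lower in the loaded limb of all 3 L-BAIBA pools was not counted. The group comparison of L-BAIBA loaded with L-BAIBA nonloaded tibiae gave a log2 fold change of -0.97 (SE 0.73, unadjusted p = 0.209, adjusted p = 1). With a fixed block for the pool it was -0.95 (unadjusted p = 0.0387, adjusted p = 0.71) and with a random block -0.99 (unadjusted p = 0.0449, adjusted p = 0.806). In these fits 1069 and 912 of the 15576 genes had an unadjusted p under 0.05. The difference of the loading effects, L-BAIBA minus vehicle, was -1.25 (SE 1.02, unadjusted p = 0.242, adjusted p = 0.751) and with the fixed block -1.73 (unadjusted p = 0.0203, adjusted p = 0.362), and none of these passed adjustment. For this difference 1834 of the 15576 genes had an unadjusted p under 0.05 with the fixed block. The value for loading within L-BAIBA mice changed when 1 limb of the replicate 1 pool was left out: it was 0.06 without L-BAIBA nonloaded replicate 1 and -2.05 without L-BAIBA loaded replicate 1. With both left out it was -1.0 (unadjusted p = 0.105, adjusted p = 0.98), close to the value with all libraries.

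In the single-bout experiment *Ppargc1a* was the only member with an unadjusted p under 0.05 in any comparison of the edgeR quasi-likelihood fit, and it stayed short of the adjusted threshold. It was at 0.808, 0.600 and 1.89 CPM in L-BAIBA loaded tibiae (28, 18 and 70 counts), 4.35, 2.18 and 1.40 CPM in vehicle loaded tibiae (81, 56 and 39 counts), and 2.47 and 1.84 CPM in L-BAIBA nonloaded tibiae (83 and 58 counts), against 3.64, 3.64 and 1.49 CPM in vehicle nonloaded tibiae (76, 95 and 52 counts). A pair of the L-BAIBA loaded libraries lay below every other library of the experiment, and L-BAIBA loaded replicate 3 lay among the libraries of the other groups. The combination against vehicle nonloaded tibiae gave a log2 fold change of -1.38 (SE 0.54, fold 0.383, 95% interval 0.168 to 0.871, unadjusted p = 0.0261, adjusted p = 0.263), where 16.7% of all genes had an unadjusted p under 0.05. Against vehicle loaded tibiae it was -1.23 (SE 0.54, fold 0.426, 95% interval 0.186 to 0.974, unadjusted p = 0.0441, adjusted p = 0.252). L-BAIBA loaded tibiae are in both, so the values are not independent.

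Both values changed with single libraries. The value against vehicle loaded tibiae was -0.63 (adjusted p = 0.556) without vehicle loaded replicate 1 and -1.88 (adjusted p = 0.123) without L-BAIBA loaded replicate 3. The combination value was -2.03 (adjusted p = 0.226) without L-BAIBA loaded replicate 3 and -1.10 (adjusted p = 0.484) without L-BAIBA loaded replicate 2. Within the 2 L-BAIBA pools with both limbs *Ppargc1a* was at 0.243 and 1.02 times in the loaded limb, and within the 2 vehicle pools at 1.19 and 1.47 times. The difference of the loading effects was -0.81 (SE 0.79, unadjusted p = 0.328, adjusted p = 1). Loading alone gave -0.15 (SE 0.52, adjusted p = 1) and L-BAIBA alone -0.43 (SE 0.58, adjusted p = 0.966).

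Markers of other cell types moved with these comparisons. The skeletal muscle markers (9 of 15 in the table) summed to 12.6 to 18.2 CPM in L-BAIBA loaded tibiae, against 22.3 to 28 CPM in vehicle loaded and 21.4 to 25.9 CPM in vehicle nonloaded tibiae. The 9 white adipocyte markers summed to 61.1 to 285 CPM in L-BAIBA loaded tibiae, against 167 to 282 CPM in vehicle loaded and 176 to 426 CPM in vehicle nonloaded tibiae. The muscle actin *Acta1* was at 0.297 to 0.652 CPM throughout, and of 3 brown adipocyte markers 1 was in the table (*Ucp1*, 0.0289 to 0.719 CPM). The neutrophil markers summed to 31800 to 74900 CPM in L-BAIBA loaded tibiae, against 23700 to 26600 CPM in vehicle loaded and 25800 to 34300 CPM in vehicle nonloaded tibiae. The 5 osteoclast markers summed to 3040 to 3930 CPM in L-BAIBA loaded tibiae. They summed to 1600 to 3070 CPM in vehicle loaded and 2170 to 2360 CPM in vehicle nonloaded tibiae. The endothelial sums overlapped (377 to 440, 389 to 462 and 370 to 488 CPM in the same order). The B cell sums were 28.1 to 154, 153 to 229 and 153 to 198 CPM in that order. In L-BAIBA loaded replicate 3 the osteoblast markers summed to 19400 CPM, against 3440 and 2600 CPM in replicates 1 and 2. The chondrocyte markers summed to 1370 CPM there, against 124 and 85.9 CPM. Over the 23 libraries *Ppargc1a* followed the muscle sum (r = 0.61, rho = 0.54) and the endothelial sum (r = 0.61, rho = 0.49). It also followed the adipocyte (r = 0.54, rho = 0.43) and osteocyte (r = 0.52, rho = 0.49) sums and ran opposite to the erythroid sum (r = -0.49, rho = -0.50). Their part in the *Ppargc1a* difference was not tested.

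**Figure D5:**
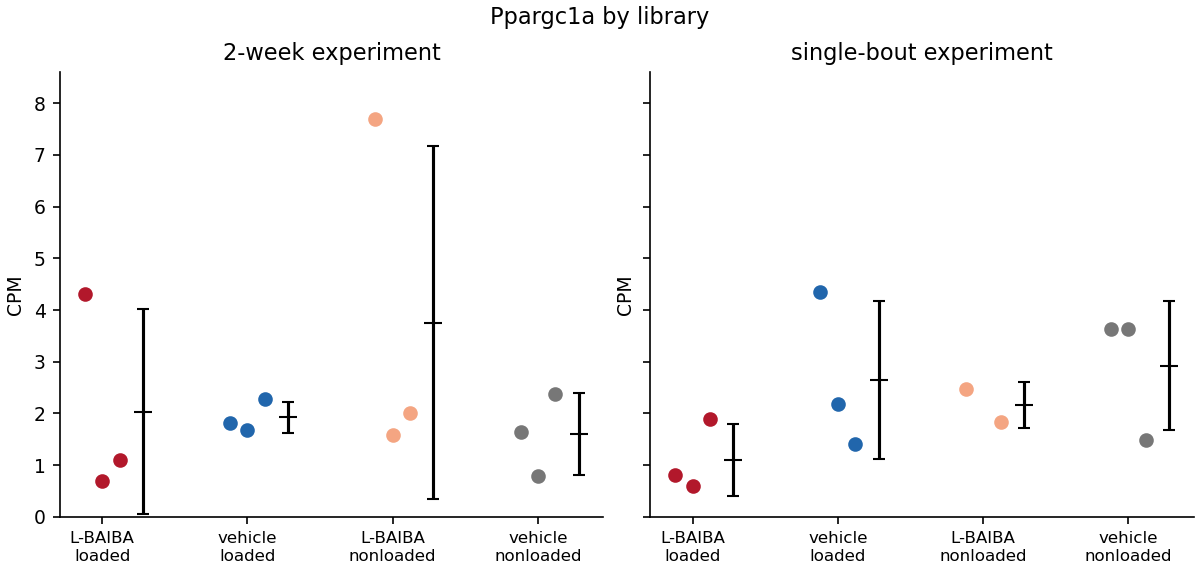
*Ppargc1a* in CPM in each library by group for the 2-week (left) and single-bout (right) experiments, with mean and SD beside the points. The 2 highest 2-week L-BAIBA libraries (7.69 CPM nonloaded, 4.31 CPM loaded) come from 1 mouse pool, and in the single-bout experiment the L-BAIBA loaded libraries lie at 0.600 to 1.89 CPM, against 1.40 to 4.35 CPM in vehicle loaded and 1.49 to 3.64 CPM in vehicle nonloaded tibiae.

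*Ppara* had low counts, 6 to 36 per 2-week library and 17 to 57 per single-bout library. In the 2-week experiment it was at 2.07, 0.871 and 0.967 CPM in L-BAIBA loaded tibiae, 1.57, 1.81 and 1.36 CPM in vehicle loaded tibiae and 0.888, 1.97 and 2.67 CPM in L-BAIBA nonloaded tibiae, against 1.77, 1.37 and 0.721 CPM in vehicle nonloaded tibiae. The groups overlapped throughout. Its log2 fold changes against vehicle nonloaded tibiae were -0.08 (SE 0.52) for the combination, 0.27 (SE 0.51) for loading and 0.51 (SE 0.51) for L-BAIBA, and in the single-bout experiment 0.18 (SE 0.42), 0.02 (SE 0.43) and -0.07 (SE 0.47). The 95% interval for L-BAIBA alone ran from folds of 0.661 to 3.06 after 2 weeks and 0.463 to 1.97 in the single-bout experiment, so the fit does not exclude changes within these bounds. For *Cpt1b* the 2-week log2 fold changes were -0.29 (SE 0.69) for the combination, -0.46 (SE 0.68) for loading and -0.48 (SE 0.71) for L-BAIBA.

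The pathway around these genes was followed in 5 further lists. None of their genes had an adjusted p under 0.05 in edgeR's quasi-likelihood test, which called 0% of all genes in each comparison. After 2 weeks of loading alone, 8 of 25 other genes of mitochondrial β-oxidation were higher and 17 lower (median log2 fold change -0.13), and 3 of the 25 reached an unadjusted p under 0.05, beside 10.2% of all genes. They were *Acadsb*, the short/branched-chain dehydrogenase (0.47, adjusted p = 0.475), *Etfb*, a subunit of the flavoprotein that takes electrons from these dehydrogenases (-0.48, adjusted p = 0.475), and *Eci2*, an enoyl-CoA isomerase (-0.38, adjusted p = 0.475). Of 18 known PPAR targets tested, 14 were higher and 4 lower (median 0.34), including the fatty acid transporter *Slc27a1* (0.39, adjusted p = 0.475), the pyruvate dehydrogenase kinase *Pdk4* (0.59, adjusted p = 0.571) and, lower, the mitochondrial carrier *Ucp2* (-0.47, adjusted p = 0.486). Of 24 PPAR and PGC-1 partners 17 were higher and 7 lower (median 0.18), among them the coactivator *Crebbp* (0.45, adjusted p = 0.485) and the receptors *Ppard* (0.35, adjusted p = 0.491) and *Rxra* (0.36, adjusted p = 0.507). The median over all genes was 0.01. Of 14 genes of peroxisomal oxidation 8 were higher and 6 lower (median 0.03), and of 11 genes of malonyl-CoA and AMPK signalling 5 were higher and 6 lower (median -0.00). Blood cell and osteocyte markers differed in this comparison, as given above. The endothelial markers summed to 537 to 843 CPM in vehicle loaded tibiae, against 526 to 597 CPM in vehicle nonloaded tibiae. The part of cell types in the list values, here and in the comparisons below, was not tested.

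After 2 weeks of L-BAIBA alone, 9 of 18 PPAR targets were higher and 9 lower (median -0.04). *Fgf21*, a secreted hormone that PPARα induces in liver, was 2.00 higher on the log2 scale (SE 0.81, adjusted p = 0.536). Of the 24 partners 9 were higher and 15 lower (median -0.05), with *Gabpa*, an ETS factor of mitochondrial genes, at 0.38 (adjusted p = 0.536), the orphan receptor *Esrrg* at 1.87 (adjusted p = 0.536) and *Pprc1*, a relative of PGC-1α, at -0.39 (adjusted p = 0.536). In this comparison 9.23% of all genes had an unadjusted p under 0.05. Values by library are not reported here for *Fgf21* and *Esrrg*. Whether their values depend on the L-BAIBA replicate 1 pool, as that of *Ppargc1a* did, was not tested. Of the other β-oxidation genes 10 were higher and 15 lower (median -0.07). The AMPK kinase *Stk11* was at -0.36 (adjusted p = 0.536) in a list of 4 higher and 7 lower (median -0.26).

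In the single-bout combination, 17 of 25 other β-oxidation genes were higher and 8 lower (median 0.11 against 0.02 over all genes), and 5 of the 25 reached an unadjusted p under 0.05, 4 of them higher, beside 16.7% of all genes. *Echs1*, the enoyl-CoA hydratase, was at 0.44 (adjusted p = 0.252), *Hsd17b10*, a hydroxyacyl-CoA dehydrogenase, at 0.28 (adjusted p = 0.255) and *Acsl6*, a long-chain acyl-CoA synthetase, at -0.94 (adjusted p = 0.244). Of 14 peroxisomal genes 11 were higher and 3 lower (median 0.19), with the thiolase *Acaa1a* at 0.48 (adjusted p = 0.233), the oxidase *Acox3* at 0.58 (adjusted p = 0.241) and the import receptor *Pex5* at 0.37 (adjusted p = 0.241). Of 16 PPAR targets 5 were higher and 11 lower (median -0.16), with *Cd36*, a fatty acid translocase, at -0.78 (adjusted p = 0.25), *Txnip* at -0.40 (adjusted p = 0.243) and *Ucp3*, a mitochondrial carrier of muscle and brown fat, at -1.01 (adjusted p = 0.264). Among the 22 partners 8 were higher and 14 lower (median -0.09). The estrogen-related receptors went apart, *Esrra* being at 0.52 (adjusted p = 0.241) and *Esrrg* at -1.62 (adjusted p = 0.281), and the corepressor *Nrip1* was at -0.50 (adjusted p = 0.28).

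With L-BAIBA loaded set against vehicle loaded tibiae of the single-bout experiment, 11 of 14 peroxisomal genes were higher and 3 lower. Their median was 0.19 against -0.04 over all genes, and *Acox3* was at 0.76 (edgeR, adjusted p = 0.17). The counts of the other lists in this comparison are not reported here. *Slc25a20*, the carnitine carrier that works between CPT1 and CPT2, was 0.47 higher (edgeR, SE 0.10, unadjusted p = 0.000947, adjusted p = 0.17). It was named for its small p within its list, and 18.9% of all genes had an unadjusted p under 0.05 here. *Cpt1a* (0.04) and *Cpt2* (0.08), on either side of *Slc25a20* in the pathway, lay near 0. *Sirt1*, a deacetylase that acts on PGC-1α, was at -0.41 (adjusted p = 0.17). The 2 comparisons share the L-BAIBA loaded libraries.

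Set between the experiments, the combination effect was lower after 2 weeks than after the single bout for 8 of 9 genes, including all 7 enzymes (log2 differences -0.36 to -0.02, SE 0.17 to 0.37). The median was -0.18 against -0.01 over all 15188 genes tested, and 0 of 9 genes, and 0% of all genes, were called by edgeR, with 0 of 9 at an unadjusted p under 0.05 beside 10.4%. *Ppargc1a* was the exception, with a difference of 1.60 (SE 0.97, adjusted p = 0.568). The loading effects differed by -0.29 for *Acadl* (SE 0.17, unadjusted p = 0.0943, adjusted p = 1) and -0.22 for *Hadha* (SE 0.18, adjusted p = 1). The loading and L-BAIBA effects had no called member by edgeR (0 of 9 each, beside 0% of all genes; at an unadjusted p under 0.05, 0 of 9 each beside 2.42% and 7.28%).

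The genes whose pattern over the 23 libraries was most like that of each member, among 15188 genes and after each experiment's mean was subtracted, differed between the enzymes. For *Hadha* they were *Ucp2* (r = 0.93, rho = 0.92), *Cd82* and *Carhsp1*, and for *Acadl* the chromatin protein gene *Hmgb2* (r = 0.93, rho = 0.93), *Vrk1* and *AI662270*. *Cpt2* was most like *Gnpat*, an enzyme of peroxisomal ether lipid synthesis (r = 0.94, rho = 0.94). *Cpt1a* was most like *Fam129c* (r = 0.83, rho = 0.79), *Acadm* like *Sub1* (r = 0.88, rho = 0.77), *Acadvl* like *Eif1* (r = 0.85, rho = 0.88) and *Hadhb* like *Emg1* (r = 0.88). *Ppargc1a* was most like *Ptprt* (r = 0.91, rho = 0.85), *Tfap2b* (r = 0.91, rho = 0.87) and *Ank2* (r = 0.90, rho = 0.92), and *Ppara* like *Pcdhb15* (r = 0.76). Between members, *Ppargc1a* ran opposite to *Hadha* (r = -0.63, rho = -0.66) and *Cpt2* (r = -0.64, rho = -0.55), and *Acadm* opposite to *Cpt2* (r = -0.64, rho = -0.55). *Cpt2* was low where endothelial (r = -0.80, rho = -0.73) and adipocyte (r = -0.73, rho = -0.74) markers were high, while *Hadhb* did not follow the osteocyte sum (r = 0.00). The libraries share mouse pools and groups, and the highest of 15188 correlations is high by selection.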

How the data were processed

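Poly(A) RNA of osteocyte-enriched tibiae was sequenced in 23 libraries. The authors aligned reads to mm10 with STAR 2.5.2b and counted uniquely mapped fragments per refSeq gene on the annotated strand with featureCounts (Subread 1.5.1). Their stated filter was CPM over 0.5 in more than 3 samples. Genes below it were among those deposited: 15576 of 15962 genes met it here in the 2-week experiment. In the single-bout experiment 15500 of 15762 genes did. The deposited counts per gene, without normalization, were used (15962 and 15762 genes, 15492 shared), together with the deposited exon length in bases. The authors also deposited log2 RPKM or FPKM in 23 columns. Those columns, and the authors' fold changes and p values of their own comparisons, were not used.

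A gene entered a fit if at least 4 libraries had it over 0.5 CPM. Libraries were scaled by TMM, and 1 model per experiment held its 4 groups (edgeR 4.0.16 in R 4.3.3, quasi-likelihood F test, Benjamini-Hochberg adjustment over all genes tested, called at an adjusted p under 0.05). CPM is TMM-scaled, and 95% intervals are from the fit. Correlations between genes used log2 CPM with a prior count of 2. Those with marker sums used log2 of CPM plus a small constant for the gene, and log2 of the summed CPM for the markers. The pipeline was tested on simulated data. Alternatives were RLE scaling, DESeq2 1.42.0, edgeR's likelihood ratio test, no filter, CPM by total counts, leaving out each library, and the mouse pool as a block (fixed, or random with limma 3.58.1). The titles name the mice of each pool. 9 pools gave a library from each limb, and the deviations of these pairs from their group means correlated by 0.15 to 0.57. The pairing was therefore used in the within-pool ratios and in the alternatives with the pool as a block. The main fit held the groups only, so its SEs, intervals and p values do not take the pairing into account.

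The members, pathway lists and markers were chosen with earlier results of these data known. From the list of erythroid markers 1 gene was left out of the sums and is not reported here. All members are named; of each pathway list, the 3 genes with the smallest p in a comparison could be named; and for likeness, the 3 genes with the highest correlation.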

Additional observations from a re-analysis of the deposited data

How the results depend on the processing

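For none of the 15 comparisons did an alternative bring a member past an adjusted p of 0.05. Over 2747 alternative values of the 141 log2 fold changes of members, 238 changed sign, and 0 had an adjusted p under 0.05. Counts of called members were 0 with the mouse pool as a fixed or random replicate block, as in the fit without it, and the block changed no call. Leaving out each library in turn gave 0 called members (lowest 0, highest 0).

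Over all genes the counts at an adjusted p under 0.05 depended on the tool. The edgeR quasi-likelihood test called 0 genes in each comparison. DESeq2 called 351 for the single-bout combination and 866 for L-BAIBA added to the single bout, and edgeR's likelihood ratio test 257 and 594, with 2581 and 2929 at an unadjusted p under 0.05 in the quasi-likelihood fit. In the other comparisons neither called more than 6. *Ppargc1a* had an adjusted p of 0.132 and 0.162 in these 2 comparisons by DESeq2, and over all their alternatives it ranged from 0.132 to 0.484 and from 0.123 to 0.556.

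With the pool of L-BAIBA replicate 1 left out on both sides, an alternative chosen after seeing the data, *Ppara* for loading within L-BAIBA mice was -1.32 (unadjusted p = 0.0249, adjusted p = 0.98). In that fit 342 genes had an unadjusted p under 0.05. By DESeq2 *Acadl* and *Hadha* for 2 weeks of loading had unadjusted p values of 0.0217 and 0.0159 (adjusted p = 0.337 and 0.31), and over all alternatives their adjusted p ranged from 0.216 to 1 and from 0.22 to 1. DESeq2 gave 1871 of the 15576 genes an unadjusted p under 0.05 in this comparison. Low counts and the spread between libraries limit *Cpt1b*, *Ppara* and *Ppargc1a*, whose intervals allow changes of 2-fold or more.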
